A study of Drosophila melanogaster and Drosophila simulans with 122 samples.

Results

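Single cysts of elongating spermatids (eST) of the Replacement line were compared with those of the D. mel KO line in D. melanogaster. They comprised 5 Replacement and 6 D. mel KO cysts, chosen by line and stage from their labels, which makes 11 of the 122 libraries of the study. The D. mel KO line carries a CRISPR deletion of both miR-983 genes of D. melanogaster, dme-mir-983-1 and its neighbour dme-mir-983-2, made in w1118, the strain that served as D. mel WT. The Replacement line carries the same deletion with the precursor of dsi-mir-983a, a D. simulans copy of the miRNA, inserted in it, so that both lines lack the D. melanogaster miRNA and differ in the presence of the D. simulans one. Both constructs carried a red fluorescent marker, which per the methods was taken out of marked flies by a cross to yw,cre;D/TM3,Sb before balancing over FM7a. Each genotype was 1 line, so the genetic background of the line cannot be told apart from miR-983. Cysts came from mated males 2 to 3 days after eclosion and were taken as eST when the bundle measured 250 to 350 µm. The sources do not say which cysts came from the same fly or preparation, and the p-values therefore measure only the spread between these cysts. The 5 D. mel WT eST cysts, cysts of the Replacement and D. mel KO lines at the stages SG, pSC and rST, and testis libraries of 20 to 25 pooled pairs from males of 3 to 5 days were used beside them.

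A spermatogenic cyst of Drosophila is a group of germ cells that descend from 1 founder cell, divide in synchrony and remain joined by cytoplasmic bridges inside a pair of somatic cyst cells. After meiosis the round spermatids (rST) of a cyst elongate together into a bundle, in which axonemes and mitochondrial derivatives grow to the length of the sperm and the chromatin is repacked. Most transcription takes place earlier, in the primary spermatocytes (pSC), and many of these transcripts are stored and translated late, while a small set of genes, named after cups and comets, is transcribed after meiosis. SG stands for the mitotic spermatogonia.

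A miRNA guides a repressive complex to transcripts mainly through its seed, the bases 2 to 8 from its 5′ end, and a changed seed changes the set of transcripts that can be bound. The designed forward primers of the study for both species are shown here because they carry the 5′ part of each miRNA behind the added bases ggcg. They are primers and not the mature miRNAs, and the capitals mark the bases 2 to 8 that follow the added bases.
dme-miR-983-5p: ggcgaTAATACGtttcgaac
dsi-miR-983-5p: ggcgaGTAATACctttcgaac
dme-miR-983-3p: ggcgaTTAGGTAgttacgca
dsi-miR-983-3p: ggcgaTGAGTTCgtcaggtat
Read position by position, 1 of the 7 capital bases was the same between the species in the 5p primers and 4 of 7 in the 3p primers. The run TAATAC occurs in both 5p primers, 1 base later in the D. simulans one. Neither deleted miRNA is a row of the count tables, and their FPKM was 0 in all eST cysts of the 3 genotypes, so these libraries do not measure miR-983 itself. The identity of the cysts was instead read on genes called between testes of the same lines. The 246 genes higher in Replacement testes had a mean log2(normalized count + 1) of 5.86 to 6.19 in the 5 Replacement eST cysts and of 4.04 to 4.54 in the 6 D. mel KO cysts, and for the 548 genes lower in Replacement testes the ranges were 3.45 to 4.03 and 4.95 to 5.37. Neither pair of ranges overlapped, so on these genes every Replacement and D. mel KO cyst fell with the line on its label. For the 285 genes higher in D. mel WT than D. mel KO testes, D. mel KO cysts lay at 3.75 to 4.11 and D. mel WT cysts at 5.56 to 6.06. For the 376 genes lower in D. mel WT testes the ranges were 5.06 to 5.62 and 2.97 to 3.73.

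Total counts were 18011714 to 21362209 in Replacement and 16126112 to 21230899 in D. mel KO cysts. Markers of elongating spermatids were present in every cyst, with 13 of 14 tested, cola at 0, and a summed level of 98165 to 628898 normalized counts in Replacement and 71158 to 569593 in D. mel KO. Spermatogonial markers summed to 844 to 1454 and 845 to 1514 normalized counts in the same order, and spermatocyte markers to 12523 to 23034 and 18362 to 25113. Of the 15 spermatocyte markers tested none was called, where 1.62% of all genes were. D. mel KO replicate 3 stood apart, since its 50 most abundant genes took 13.5% of the counts against 19.8% to 23.2% in the other D. mel KO cysts. A stage position was set from the mean D. mel WT rST profile at 0 to the mean D. mel WT eST profile at 1. On it replicate 3 lay at 0.106, against 0.445 to 1.04 in the other D. mel KO cysts and 0.443 to 1.07 in Replacement. D. mel KO rST cysts lay at -0.028 to 0.264, so by this measure replicate 3 fell within the rST range. D. mel KO replicate 4 resembled a D. mel WT cyst more than any other cyst, by Spearman correlation over all genes. Without D. mel KO replicate 3, 227 genes were called, 179 of them among the 201 described below, and without replicate 4 the number was 201, of which 166 were shared.

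Replacement and D. mel KO spermatids differed in 201 genes. Among them Polr2A, the largest subunit of RNA polymerase II, was far lower in Replacement cysts, and RabX2, lectin-22C and lncRNA:CR43404 were well read in Replacement but had almost no reads in D. mel KO cysts. Of 12396 genes tested, 201 (1.62%) were called by the quasi-likelihood test of edgeR at a Benjamini-Hochberg FDR under 0.05 and an absolute log2 fold change above 1, in 1 fit with D. mel WT. Of these, 87 (0.702%) were higher and 114 (0.92%) lower in Replacement. An unadjusted p under 0.05 was reached by 1740 genes (14%), and DESeq2 called 464 genes (3.74%), which included all 201. The median log2 fold change of all genes tested was 0.015. A cyst library pools its spermatids, so fewer cells with a transcript and less transcript per cell cannot be told apart.

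**Figure D1:**
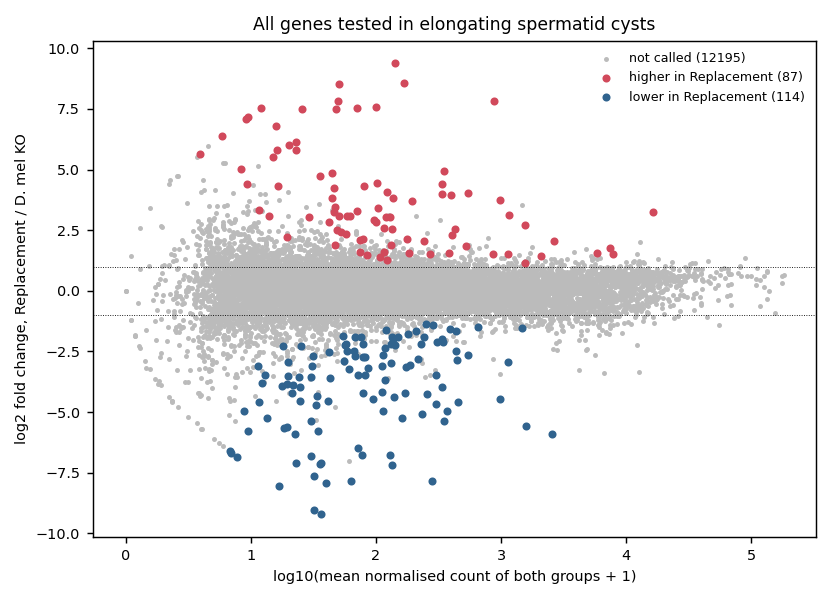
Log2 fold change of Replacement over D. mel KO eST cysts (vertical axis) against log10 of the mean normalized count of both groups plus 1 (horizontal axis), 1 point per gene tested. The 87 genes called higher are red, the 114 called lower blue, the others grey, and dotted lines mark a log2 fold change of 1 in either direction.

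The called genes were mostly large changes of moderately expressed genes. The absolute log2 fold change was 1 to 3 for 79 genes, over 3 to 5 for 71 and above 5 for 51. The median of the higher group mean was 141 normalized counts, and 19 genes exceeded 1000, of which 14 were higher and 5 lower in Replacement. The counts of the 5 Replacement and 6 D. mel KO cysts did not overlap for 149 of the 201 genes, against 426 (3.44%) of all genes tested. By biotype, 149 were protein-coding genes (1.34% of 11082 tested), 45 ncRNA genes (3.86% of 1167) and 6 pseudogenes (6% of 100). In the group in which they were lower, 11 genes had no read and 23 had 1 to 3 reads. In 45 cases the gene shares an exon with another gene, and since the counting ignored strand, the reads of such a pair cannot be assigned to 1 of them.

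Polr2A on X had the most reads of the 24 genes named for the size of their change. The 5 Replacement cysts had 84.1, 120, 92.8, 61.2 and 53.2 normalized counts of Polr2A, while the D. mel KO cysts had 2000 to 7092 with a median of 5306. The lowest D. mel KO cyst, replicate 3, was therefore still far above the highest Replacement cyst. D. mel WT cysts lay at 2962 to 7114, close to the range of D. mel KO. The log2 fold change was -5.92 (SE 0.44, edgeR adjusted p = 9.79e-08), and mean FPKM, which corrects for length, was 0.461 in Replacement and 29.0 in D. mel KO.

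Among the 12 genes with the largest increase and no overlap of the groups, 6 had at most 3 reads over the D. mel KO cysts together. RabX2, a gene of the Rab family of small GTPases on X, had 373, 116, 269.7, 151 and 500.2 normalized counts in the Replacement cysts. In D. mel KO, 4 cysts had no read of RabX2 and the others 1 read each, so that Replacement was 1090.2 times as high over pooled reads, with 95% counting limits of 301 and 9009.7, and 710.8 times as high by the mean normalized counts (edgeR adjusted p = 0.00341). D. mel WT was split, with 495 normalized counts of RabX2 in replicate 3 and 0 to 8.25 in the other 4 cysts. Limits and floors of this kind cover counting error only, and amplified reads are not independent molecules.

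lectin-22C, of the C-type lectin family on 2L, had 291, 55.7, 304, 243 and 92.5 normalized counts in the Replacement cysts. Its highest D. mel KO cyst had 5.63 and the others 0 to 0.419, and D. mel WT had at most 0.95 (log2 fold change 7.58, SE 0.86, edgeR adjusted p = 2.04e-05). lncRNA:CR43404 on 2L had 104, 314, 430.1, 561 and 263 normalized counts in Replacement, 0 to 2.25 in D. mel KO and 0 to 1.99 in D. mel WT (log2 fold change 8.56, SE 0.77, edgeR adjusted p = 1.31e-06). Both genes were thus read in every Replacement cyst and almost absent from the other lines.

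SA1 encodes a stromalin, a subunit of cohesin, the ring that holds sister chromatids together, and shares an exon with CG13775. SA1 had 194, 87.7, 252, 258 and 172 normalized counts in Replacement, against 1.25 to 17.6 with a median of 8.28 in D. mel KO and 6.88 to 55.4 in D. mel WT. Every Replacement cyst was above every other cyst, and the log2 fold change over D. mel KO was 4.47 (SE 0.64, edgeR adjusted p = 0.000369). CheB38c, a member of the CheB family of chemosensory proteins, had 983, 1367.5, 247, 416 and 338 normalized counts in Replacement and 9.64 to 45.2 with a median of 14.6 in D. mel KO (log2 fold change 4.94, SE 0.75, edgeR adjusted p = 0.000678). For CheB38c, D. mel WT cysts had 9.87 to 661 and so overlapped both lines.

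The other genes of this set were lower in level. AstCC, the gene of a neuropeptide of the allatostatin C family, had 14.2 to 54.6 normalized counts in Replacement and 1 read in all over the D. mel KO cysts. y (yellow), needed for dark cuticle pigment, had 13.3 to 49.8 in Replacement, 0 to 1.68 in D. mel KO and 0 to 1.97 in D. mel WT. f (forked), an actin-bundling protein of bristles, had 20.1 to 91.1, 0 to 2.14 and 0 to 3.8 in the same order. Both y and f lie on X, and f shares an exon with CG8664. CG42713 had 17.7 to 77.8 normalized counts in Replacement and 0 to 1.26 in D. mel KO, and the pseudogenes CR44383 and CR34262 had 53.2 to 147 and 4.74 to 60.9 against at most 1.13 and 1.25. CR34262 was as high in D. mel WT, at 5.51 to 48.3. Of the 12 genes, 6 lie on 2L, 5 on X and 1 on 3L, and CG33666 on X, described further below, completes the set.

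**Figure D2:**
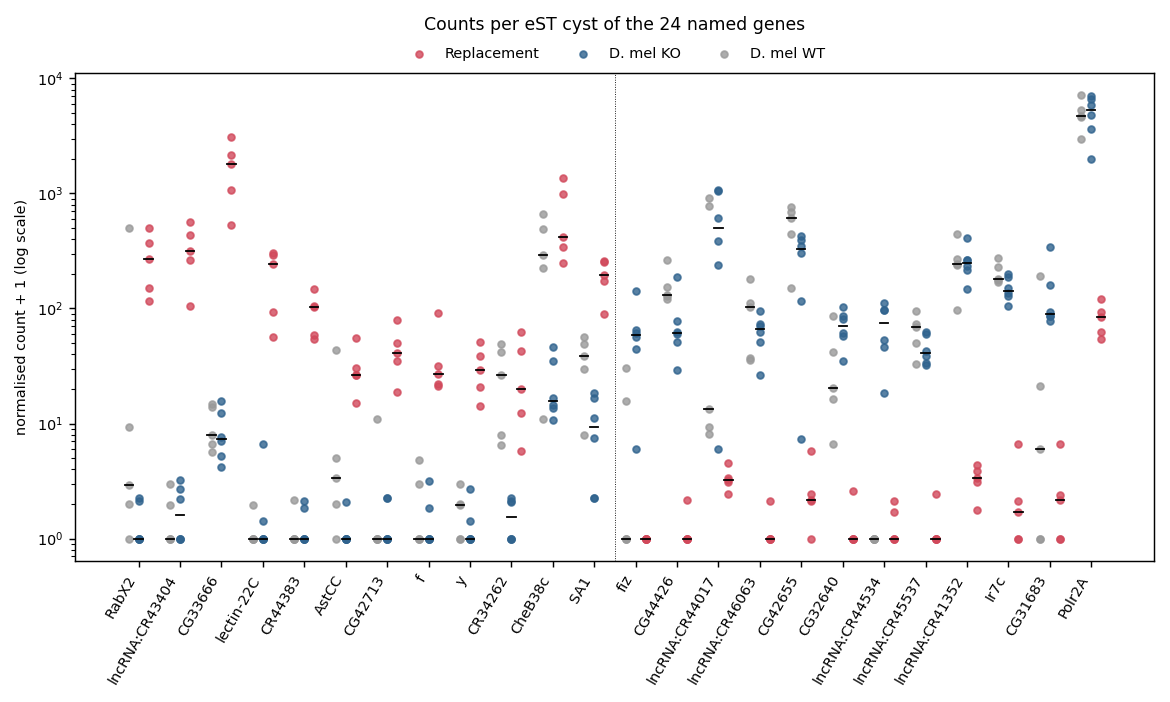
Normalized count plus 1 (log axis) in each eST cyst for the 12 genes with the largest increase (left of the dotted line) and the 12 with the largest decrease (right) whose groups do not overlap, with D. mel WT in grey, D. mel KO in blue, Replacement in red and medians as bars. Polr2A at the far right has 53.2 to 120 normalized counts in Replacement and 2000 to 7092 in D. mel KO.

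Among the 12 genes with the largest decrease, fiz (fezzik), an enzyme of the GMC oxidoreductase family on X, had no read in any Replacement cyst. The D. mel KO cysts had 5.02 to 140 normalized counts of fiz with a median of 57.7, at least 134-fold more over pooled reads when the Replacement group is set to a floor of 3 reads in all (edgeR adjusted p = 0.0105). D. mel KO replicate 3 held 334 of the 548 reads, and without it the bound was 79.2-fold. D. mel WT was at 0 in 3 cysts and reached 29.4. Ir7c, a member of the ionotropic receptors that serve as chemosensors, had 1.11, 0, 0, 5.69 and 0.701 normalized counts in Replacement. It had 104 to 198 in D. mel KO and 168 to 275 in D. mel WT, and its log2 fold change was -6.77 (SE 0.65, edgeR adjusted p = 2.95e-06). Replacement cysts thus stood apart from both other lines.

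CG42655 on 3L had 0 to 4.72 normalized counts in Replacement and 6.27 to 426 with a median of 327 in D. mel KO (log2 fold change -7.17, SE 0.95, edgeR adjusted p = 0.000137). lncRNA:CR44017 on 3R had 1.42 to 3.56 in Replacement and 5.02 to 1072 with a median of 496 in D. mel KO. For fiz, CG42655 and lncRNA:CR44017 alike, the lowest D. mel KO cyst was replicate 4, whose values nearly reached those of Replacement. Without that cyst all 3 genes were still called. In D. mel WT, lncRNA:CR44017 was split into 2 cysts above 770 and 3 cysts below 13 normalized counts.

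CG44426 on X had 28.1 to 187 normalized counts in D. mel KO, 121 to 261 in D. mel WT and 1 read over the Replacement cysts, so that D. mel KO was 332 times as high as Replacement with 95% counting limits of 59.3 and 13142. The noncoding lncRNA:CR41352, lncRNA:CR45537 and lncRNA:CR46063 had 146 to 405, 31.5 to 61.5 and 25.4 to 93.4 in D. mel KO, and at most 3.32, 1.42 and 1.11 in Replacement. D. mel WT was at the level of D. mel KO for all 3. lncRNA:CR44534 on X was the exception, with 17.6 to 110 normalized counts in D. mel KO, at most 1.11 in Replacement and no read in D. mel WT, so that D. mel KO alone was high.

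For a few of the named genes the deposited counts and FPKM disagreed. HTSeq leaves out reads that map to several places, while StringTie by default uses them, so a gene that shares reads with a near-identical copy can differ between the units, and this was not tested. CG33666 had 1060.1, 536, 2167, 3119 and 1810.2 normalized counts in Replacement and 3.21 to 14.6 in D. mel KO, but a mean FPKM of 284 and 157, less than 2-fold apart. CG32640 had 33.9 to 101 normalized counts in D. mel KO and at most 1.57 in Replacement, and a mean FPKM of 18.5 and 4.51. CG31683 had 76.2 to 344 normalized counts in D. mel KO and at most 5.69 in Replacement, and a mean FPKM of 23.0 and 8.27. CG31683 shares an exon with CG31688. Its call was lost without any 1 of Replacement replicates 1, 2, 3 or 5, with adjusted p from 0.0505 to 0.0562. The size of these 3 changes is uncertain. Over all 201 genes, mean FPKM differed in the direction of the counts in 201, by less than 2-fold in 16, and the higher group stayed below 1 FPKM in 32.

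The changes seen in eST cysts were largely present in libraries that had no part in their choice. Testis libraries share no sample with the cysts. Of the 87 genes higher in eST cysts, 86 were tested in testes and 51 were called higher there, where 1.92% of all genes were called higher. Of the 114 genes lower in eST cysts, 111 were tested and 87 were called lower, against 4.27% of all genes. No gene was called in the opposite direction, and 80 and 109 had the same sign. The change was smaller in testes for 162 of the 197 genes tested in both. Since the genes were chosen by their change at eST, this count does not show a smaller difference in testes.

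**Figure D3:**
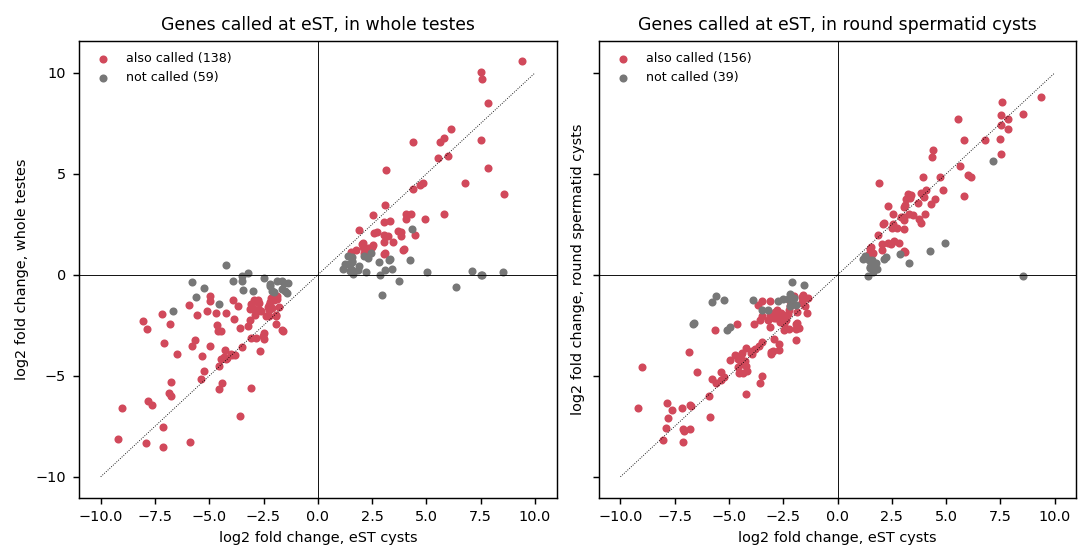
Log2 fold change of Replacement over D. mel KO in whole testes (left) and in rST cysts (right) against that in eST cysts (horizontal axes), 1 point per gene called at eST, red where the gene was also called there and grey where it was not. In testes 138 genes were also called and in rST 156, all on the side of 0 they had at eST, and the dotted line marks equal changes.

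In rST cysts, the stage before, 64 of 83 genes higher at eST were called higher (1.47% of all genes) and 92 of 112 genes lower at eST were called lower (2.92%). The shares were lower at earlier stages, with 28 of 84 and 56 of 114 in pSC cysts (0.44% and 1.27% of all genes) and 4 of 86 and 18 of 114 in SG cysts (0.038% and 0.319%). The spread between cysts was largest at SG, with a biological coefficient of variation of 0.713. It was 0.558 at pSC, 0.407 at rST and 0.597 at eST, and 0.091 between testis libraries. No gene was called in the opposite direction at any stage. DESeq2 called more of the 201 genes at the early stages, 127 at pSC and 69 at SG, where edgeR called 84 and 22. With Replacement and D. mel KO fitted alone, edgeR called 11 at SG, and with 1 SG cyst left out 16 to 31, so the count at SG depends on the fit. In all, 127 genes were called in the same direction in both testes and rST cysts.

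Called in the same direction at all 4 stages and in testes were 20 genes, 3 higher and 17 lower in Replacement, a count that rests on the calls at SG. The 3 were CG33666, CR44383 and sordd2, and each lies within 10 kb of another called gene on X. For sordd2, too, counts and FPKM disagreed, with a log2 fold change of 4.40 in counts and a mean FPKM of 65.4 and 54.4, so the size of its change is uncertain. The 17 include the receptor genes Ir7c and Or47a, an odorant receptor that shares an exon with Cpr47Ea, and NetA, a netrin that guides axons. The log2 fold change of Ir7c was -9.63 in spermatogonial cysts, -5.1 at pSC, -6.47 at rST, -6.77 at eST and -5.31 in testes, each called by edgeR.

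Polr2A changed in a different manner over the stages. In Replacement cysts its mean FPKM was 9.27 in SG, 1.35 in pSC, 0.338 in rST and 0.461 in eST, while D. mel KO stayed at 19.9, 20.3, 21.6 and 29.0. The log2 fold change was -1.17 at SG (SE 0.38, not called, edgeR adjusted p = 0.278), -4.19 at pSC (SE 0.48), -6.01 at rST (SE 0.16) and -5.92 at eST (SE 0.44), the last 3 called. Replacement SG cysts were uneven, from 436 to 3016 normalized counts, against 2966 to 3914 in D. mel KO. In testes the change was -1.51 (SE 0.067, edgeR adjusted p = 2.14e-09), with 535 ± 36.7 and 1520.4 ± 73.1 normalized counts (SD, n = 3). The difference between SG and eST was not tested.

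SA1 went the other way over the stages, with mean FPKM of 19.2, 2.16, 1.36 and 2.13 in Replacement and 10.2, 0.403, 0.109 and 0.113 in D. mel KO from SG to eST, and a call at pSC, rST, eST and in testes. CheB38c differed in that its mean FPKM in Replacement was 19.0 in SG, 5.03 in pSC, 2.33 in rST and 38.4 in eST cysts. It was called at eST and at no other cyst stage, but also in testes, where the log2 fold change was 2.76 (SE 0.28, edgeR adjusted p = 9.95e-06). RabX2 had a mean FPKM of 73.8 at pSC and 15.2 at eST in Replacement and at most 0.181 at any stage in D. mel KO.

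**Figure D4:**
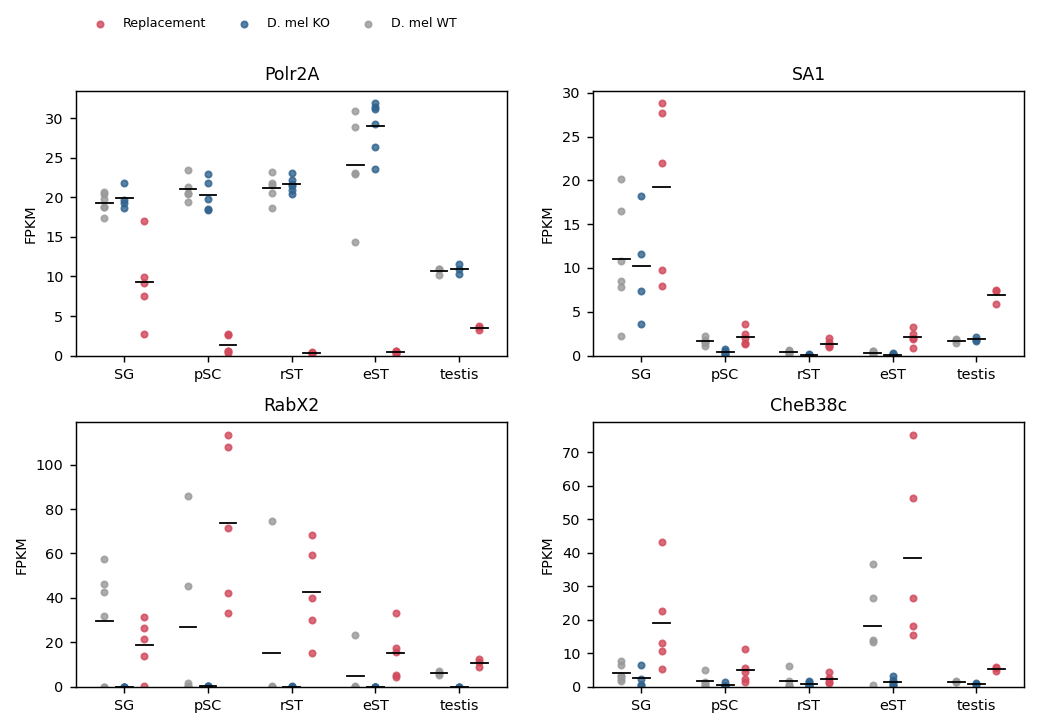
FPKM of Polr2A, SA1, RabX2 and CheB38c in each library of D. mel WT (grey), D. mel KO (blue) and Replacement (red) at the 4 cyst stages and in testes, with means as bars. Replacement is below D. mel KO in all libraries for Polr2A from pSC on, and above it for SA1 and RabX2 at eST.

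Whether a gene differed more at eST than at rST was tested directly, as the difference between both contrasts in 1 fit. None of 12773 genes was called by edgeR (0%), with a lowest adjusted p of 0.259, while 697 genes (5.46%) had an unadjusted p under 0.05 and DESeq2 called 11 (0.0861%). Without D. mel KO eST replicate 4, edgeR called 11 genes. By edgeR on all cysts, no gene was thus shown to differ between the lines more or less at eST than at rST.

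Called at eST and in no other comparison were 33 genes, 20 higher and 13 lower in Replacement. That a gene was not called elsewhere does not show a smaller difference there, since the direct test against rST called none by edgeR. Some are widely used regulators. garz, an exchange factor for Arf GTPases at the Golgi, had 1062 to 2438 normalized counts in Replacement and 418 to 825 in D. mel KO (log2 fold change 1.54, SE 0.3, edgeR adjusted p = 0.00658). sws, a phospholipase of the neuropathy target esterase family that shares an exon with sn, had 722 to 1933 and 265 to 561. Set2, the histone H3K36 methyltransferase, gig, the fly Tsc2, and Frl, a formin that shares an exon with asRNA:CR46067, rose by 1.51, 1.61 and 1.83 on the log2 scale. In testes each of these 5 genes differed by less than 1 on the log2 scale, from 0.15 for gig to 0.31 for garz. There Frl, sws and garz passed the FDR threshold and missed only the fold threshold (edgeR adjusted p = 0.00297, 0.00618 and 0.00672). Set2 and gig passed neither (edgeR adjusted p = 0.265 and 0.261). These genes and those of the next paragraph were picked from the 33 after their values were seen.

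Among the 13 genes called lower at eST and in no other comparison, Mccc1, a subunit of the carboxylase of leucine breakdown, had 22.0 to 69.7 normalized counts in Replacement and 294 to 728 in D. mel KO (log2 fold change -3.48, SE 0.36, edgeR adjusted p = 5.38e-06). It shares an exon with faf. Its log2 fold change was -1.73 at rST (edgeR adjusted p = 0.0821) and -0.32 in testes (edgeR adjusted p = 0.0093). Sox21a, a transcription factor of the SoxB group, had no read in Replacement and a mean of 11.9 normalized counts in D. mel KO. CG43755, one of the 20 genes called higher at eST and in no other comparison, reached the highest level of all called genes. It had 14814 to 50131 normalized counts in Replacement against 391 to 13768 with a median of 920 in D. mel KO, and shares an exon with Plc21C. The log2 fold change of CG43755 was 3.27 at eST, 0.59 at rST (edgeR adjusted p = 0.176) and 0.73 in testes (edgeR adjusted p = 0.00137).

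Lists of genes for the machinery of sperm formation were compared as well. The pathway lists comprised genes for the sperm tail, axonemal dyneins, sperm chromatin, cup and comet genes, individualization and caspases, mitochondrial derivatives, sperm leucyl aminopeptidases, testis proteasome paralogs, glycolysis, chaperones, small RNA machinery and Y-linked genes. None of their members was called by edgeR, where 1.62% of all genes were. Lists of 9 to 24 tested genes would hold few calls at that share, so this does not show that their genes are unchanged. Members with an unadjusted p under 0.05 were 8 of 20 for sperm tail proteins, 4 of 16 for cup and comet genes, 4 of 13 for sperm chromatin, 3 of 12 for Y-linked genes, 3 of 15 for dyneins, 3 of 16 for glycolysis, 3 of 19 for individualization, 3 of 24 for chaperones, 1 of 14 for the proteasome paralogs and 1 of 12 for small RNA machinery, against 14% of all genes. The 12 tested genes of mitochondrial derivatives and the 9 aminopeptidases had none. DESeq2 called 2 cup and comet genes, 1 sperm tail gene, 1 Y-linked gene and 1 chaperone.

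**Figure D5:**
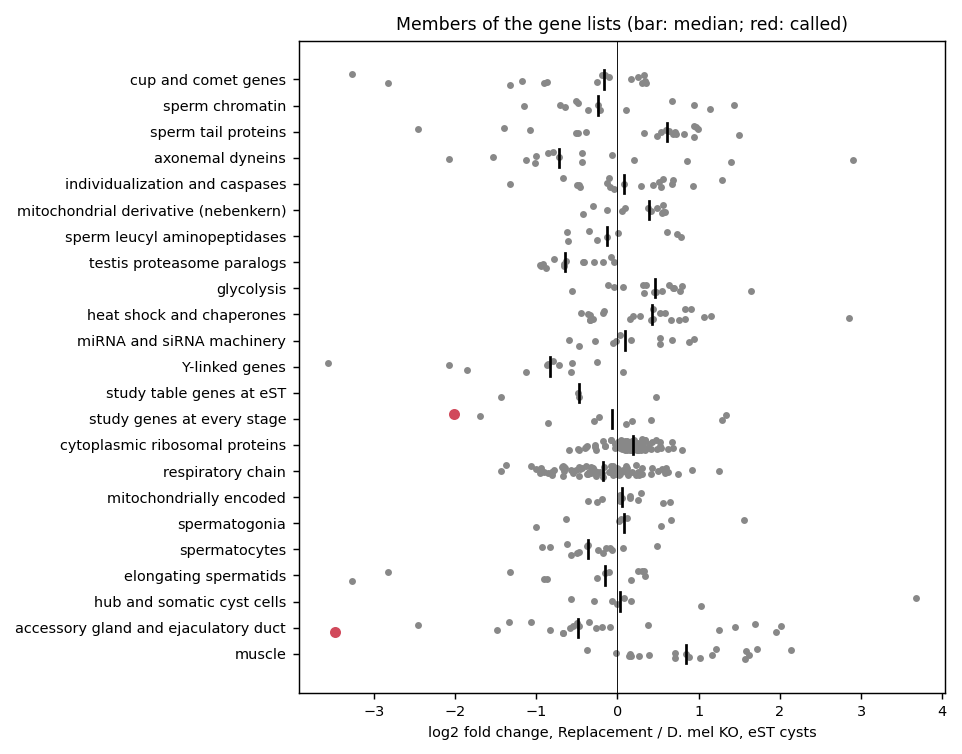
Log2 fold change of Replacement over D. mel KO at eST for each tested member of the gene lists, with the median as a bar and the called genes in red. The called genes are gkt among the genes of the study and Dup99B among the accessory gland and ejaculatory duct markers.

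The median log2 fold changes of these lists lay between -0.83 for Y-linked genes and 0.61 for sperm tail proteins, beside 0.015 for all genes. Within the sperm tail list, 5 members with an unadjusted p under 0.05 were higher and 3 lower. Mst84Dc, a small cysteine-rich protein of the tail, had 63482 to 182380 normalized counts in Replacement and 17595 to 74698 in D. mel KO (log2 fold change 1.00, SE 0.41, edgeR adjusted p = 0.278). betaTub85D, the beta-tubulin of the testis, had 16266 to 48810 and 30789 to 140033 (log2 fold change -1.39, SE 0.54, edgeR adjusted p = 0.244). In both the groups overlapped.

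The 4 cup and comet genes with an unadjusted p under 0.05 were all lower in Replacement, namely d-cup, sunz, s-cup and soti. sunz had 386 to 1117 normalized counts in Replacement and 611 to 28961 with a median of 1173 in D. mel KO (log2 fold change -3.27, SE 0.99, edgeR adjusted p = 0.115), and the medians differed far less than the means of 794 and 7643. d-cup had 114 to 350.3 and 185 to 4595 with a median of 397 (log2 fold change -2.82, SE 0.81, edgeR adjusted p = 0.0904). soti, an inhibitor that limits caspase activation before individualization, had means of 5489 and 13685 normalized counts (log2 fold change -1.32, SE 0.51, edgeR adjusted p = 0.243). The list median was -0.17, and the sums of the list overlapped, from 103087 to 700790 normalized counts in Replacement and from 74580 to 652396 in D. mel KO.

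Of the 12 Y-linked genes, which include the giant dynein genes needed for sperm motility, 11 had a negative log2 fold change. ORY had 21.4 to 71.6 normalized counts in Replacement and 17.1 to 1376 with a median of 70.8 in D. mel KO (log2 fold change -3.56, SE 1.17, edgeR adjusted p = 0.153). kl-3, a dynein heavy chain, had 5.69 to 78.2 and 6.06 to 521 (log2 fold change -2.07, SE 0.95, edgeR adjusted p = 0.334). For the 14 proteasome paralogs the log2 fold changes ran from -0.95 to -0.05, none above 0, and for the 85 ribosomal proteins from -0.6 to 0.8 with a median of 0.19. Of 85 nuclear genes of the respiratory chain and 13 mitochondrial genes, none was called, where 1.62% of all genes were. An unadjusted p under 0.05 was reached by 5 and 0 of them, against 14% of all genes. In testes the medians of the Y-linked and proteasome lists were 0.067 and 0.071. The axonemal dynein median moved from -0.72 to between -0.97 and -0.28 over the alternatives tried.

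Markers of other cells were compared as well. The list of accessory gland and ejaculatory duct genes, seminal proteins that the testis itself should lack, summed to 594 to 705 normalized counts in Replacement and 458 to 2728 in D. mel KO, with 22 of 32 genes tested and Acp95EF at 0. Dup99B, a peptide of the ejaculatory duct related to the sex peptide, was the only one called, where 1.62% of all genes were. It had 7.86 to 23.7 normalized counts in Replacement and 6.76 to 554 with a median of 80.6 in D. mel KO. Its groups overlapped, and its adjusted p of 0.0467 rose above 0.05 in 12 of 19 alternatives, up to 0.133 without D. mel KO replicate 1. In testes the median of this list was -5.54, against -0.49 in eST cysts. There 22 of its 29 genes tested in testes were called, where 794 of all 12842 genes tested were. Muscle genes had a median of 0.85, with 7 of 19 at an unadjusted p under 0.05, against 14% of all genes. All 7 were higher in Replacement. The list summed to 21884 to 47088 normalized counts in Replacement and 6391 to 39765 in D. mel KO. Act57B, a muscle actin, had 349 to 1724 in Replacement and 84.0 to 602 in D. mel KO (edgeR adjusted p = 0.205). Hub and somatic cyst cell markers summed to 1182 to 2353 and 1199 to 2806. The part of muscle sheath RNA in the called genes was not tested.

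Genes that the study had listed were looked up in this contrast. The paper compared the change from D. mel KO to Replacement with the changes from KO to WT in both species. For the listed genes it found the Replacement and D. mel WT changes to differ, without a fold threshold. The genes listed for eST also differed strongly between the wild types of the species. These criteria are not those of a call here, so the calls below do not test the lists. The study chose the genes on the same Replacement cysts, so they are no independent evidence. Of 10 genes listed for all stages, gkt (glaikit), a tyrosyl-DNA phosphodiesterase of DNA repair, was the only one called, where 1.62% of all genes were. It had 79.7, 74.7, 144, 174 and 192 normalized counts in Replacement, 330.1 to 794 with a median of 492 in D. mel KO and 160.2 to 881 in D. mel WT. The log2 fold change was -2.01 (SE 0.41, edgeR adjusted p = 0.0109), and without overlap of Replacement with D. mel KO. It was -1.03 at rST and -1.22 in testes, both called, and -0.94 and -0.68 at SG and pSC, where it was not called. The other 9, among them Traf4, an adaptor of TNF receptor signalling, and Dscam4, a cell adhesion protein, ran from -1.69 for dimm to 1.33 for CG10559, with adjusted p of 0.367 or more. Of the 4 genes listed for eST, none was called, and CG43895 was farthest from 0 at -1.44 (SE 0.63, edgeR adjusted p = 0.314).

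Around the edited locus no difference was detected in the genes that could be tested. Both deleted miRNAs lie on X on the minus strand, mir-983-1 at 4368309 to 4368399 and mir-983-2 at 4368483 to 4368581 in the annotation that the files use, inside an intron of CG3626, which runs on the plus strand from 4366417 to 4371136. CG3626 had 0 to 22.8 normalized counts in Replacement and 1.21 to 23.6 in D. mel KO (log2 fold change 0.2, SE 0.9, edgeR adjusted p = 0.946), at which depth only a large change could have been seen. Of the other genes within 20 kb, norpA, the phospholipase C of vision, had 38.4 to 60.4 and 39.4 to 110 (log2 fold change -0.76, SE 0.38, edgeR adjusted p = 0.385), and lncRNA:CR32773, asRNA:CR43614, which shares an exon with CG3626, and FBgn0267040 were not called either. FBgn0029707, with means of 3.88 and 1.13 normalized counts, was below the filter and not tested. The miRNA genes mir-984, mir-982 and mir-303, also within 20 kb, are absent from the counts and could not be tested. The nearest called gene on X was CG3062, 272.7 kb away, with a log2 fold change of 2.30.

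The share of genes that were called ranged widely over the chromosome arms, which was not tested. On X 54 of 1875 tested genes were called (2.88%), on 2L 63 of 2426 (2.6%), on 3L 33 of 2434 (1.36%), on 3R 32 of 3039 (1.05%) and on 2R 19 of 2476 (0.767%), while none of 87 genes on chromosome 4, 32 on Y and 15 of the mitochondrial genome was. Directions were mixed on each arm, with 25 higher and 29 lower on X and 32 and 31 on 2L. In windows of 5 Mb the share reached 6.54% at 20 to 25 Mb of X, with 10 of 153 genes, and 3.48% at 30 to 35 Mb of 3R, where all 7 called genes were lower. Called genes within 10 kb of each other formed 15 pairs of 30 genes, 11 of them in 1 direction, such as CG33666 with CG33665, whose mean FPKM of 318 and 206 also differed by less than its counts, and CR44383 with sordd2 on X.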

How the data were processed

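Single cysts were amplified by SMART-seq2 and sequenced. RNA of pooled testes was extracted and sequenced as well, and the paper describes this amplification for the cysts only. The authors trimmed reads with Trimmomatic 0.36, mapped them with HISAT2 2.2.0 to the D. melanogaster genome, and deposited raw counts per gene from HTSeq 0.6.0, made in union mode without strand, and FPKM from StringTie 2.1.4. All 71 D. melanogaster columns of the count tables were mapped to their samples. Symbols came from the reference annotation, in which 99.9% of the shared genes had the same span as in the deposited files.

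Counts were normalized by TMM, genes with a normalized mean above 5 in at least 1 of the 3 genotypes were kept, and edgeR 4.0.16 (limma 3.58.1, R 4.3.3) tested Replacement minus D. mel KO with a two-sided quasi-likelihood test, whose p-values were adjusted after Benjamini and Hochberg. The SE is the absolute log2 fold change divided by the square root of F. Calls needed an FDR under 0.05 and an absolute log2 fold change above 1. The testis libraries, each earlier stage and the difference between eST and rST were fitted likewise. FPKM were used as deposited, and compared with counts after adding 0.1. DESeq2 1.42.0 was an alternative, beside its size factors, no filter, a filter of 50, 2 groups alone, the replicate number as a block, protein-coding genes, the stage position as a covariate and leaving out each replicate. Alternatives for the rST, pSC and SG comparisons were chosen after seeing the data. The fits were tested on simulated data.

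Genes named are the 12 with the largest change in each direction among called genes without overlap and with a mean of at least 20, genes of the study, called members of the lists and genes within 20 kb of mir-983, with further genes where stated. The members and lists were chosen with earlier results of these data known. Symbols of the lists not found were i-cup, o-cup, v-cup, Rib43a and Dhc1. Other calculations used Python 3.11.15, pandas 2.3.3, numpy 2.4.6, scipy 1.17.1 and matplotlib 3.10.9.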

Additional observations from a re-analysis of the deposited data

Results flagged for a closer look

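Of 100 checks of 1 cyst against the others of its line, 16 stood out by their gap, and chance alone gives about 1 in 20. In several the other cysts held no read and 1 to 3 reads sufficed, namely AstCC in D. mel KO replicate 1 (1.07 normalized counts), CG44426 in Replacement replicate 2 (1.19), lncRNA:CR46063 in Replacement replicate 1 (1.11), CG32640 in Replacement replicate 3 (1.57), lncRNA:CR45537 in Replacement replicate 4 (1.42) and lncRNA:CR32773 in Replacement replicate 3 (2.36). Low counts also stood out for lectin-22C in D. mel KO replicate 6 (5.63) and y in D. mel KO replicate 5 (1.68).

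D. mel KO replicate 4 was low for fiz (5.02 normalized counts, others 43.6 to 140), lncRNA:CR44017 (5.02, others 236 to 1072) and CG42655 (6.27, others 115 to 426), and high for CG43850 (96.6, others 42.9 to 55.7). Among Replacement cysts, f was high in replicate 4 (91.1, others 20.1 to 30.7), CG43895 low in replicate 1 (5.53, others 16.1 to 24.2) and Traf4 low in replicate 3 (7.08, others 140 to 388). In D. mel KO replicate 3 the 50 most abundant genes took 13.52% of the counts, against 19.75% to 23.19% in the others.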

How the results depend on the processing

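Of the 201 genes called at eST, all 201 were called by DESeq2, which called 464 in all, and 123 with the replicate number as a replicate block, which called 132. No source used here says that a number marks a shared fly, batch or day. Samples with the same number deviated together with r of 0.086 to 0.389, and 4 of 5 correlated best with their own number. The other alternatives called 136 to 282 genes, and leaving out 1 cyst gave 141 (without Replacement replicate 4) to 227 (without D. mel KO replicate 3). In testes, 138 of the genes were called, and 106 to 138 over the alternatives, with 138 under the replicate block and 134 to 138 when 1 library was left out. The difference between eST and rST had 11 calls by DESeq2, 0 with a replicate block and 0 to 11 when 1 cyst was left out. The genes named for the size of their change kept their call wherever they were tested, except CG31683. gkt lost its call under the replicate block (edgeR adjusted p = 0.0661) and Dup99B in 12 of 19 alternatives. Other called genes named in the text, such as Set2 and garz, were not followed gene by gene over the alternatives. Among named genes that were not called, some changed sign. With the replicate block the log2 fold change was -0.010 for CG31370 and -0.18 for asRNA:CR43614. Leaving out 1 cyst gave -0.018 to 0.87 for Ccdc85, -0.33 to 0.79 for Traf4, -0.013 to 0.62 for SCAP, -0.16 to 0.41 for CG31370, -0.52 to 0.096 for Dscam4, -0.31 to 0.74 for CG3626 and -0.26 to 0.31 for asRNA:CR43614. Of the 201 genes, the replicate block called 137 at rST, 71 at pSC and 4 at SG, where the fit without it called 156, 84 and 22. At a coefficient of variation of 0.597 between cysts, the SE of the log2 fold change was 0.44 for Polr2A and 0.9 for the low gene CG3626. The cause of the differences between settings was not tested.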

Other observations

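Some called genes outside the naming rule, picked after their values were seen, belong to pairs or families. SA2, a second stromalin beside SA1, which shares an exon with CG13775, was lower in Replacement, at 3.32 to 66.8 normalized counts against 434 to 1440 in D. mel KO (log2 fold change -4.60, SE 0.64, edgeR adjusted p = 0.000237). D. mel WT had 18.8 to 87.8 of SA2, close to Replacement, so that D. mel KO cysts had high SA2 and low SA1 and Replacement cysts the reverse. The neighbouring transcription factors gcm and gcm2, which specify glia and blood cells in the embryo, also moved in opposite directions. gcm had 51.1 to 83.0 normalized counts in Replacement and 129 to 445 in D. mel KO (log2 fold change -1.90, edgeR adjusted p = 0.00779), and gcm2 had 81.9 to 421 and 5.86 to 49.5 (log2 fold change 3.06, edgeR adjusted p = 0.00449). gcm shares an exon with CG31709.

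Single called genes that encode a receptor or a channel were looked up by name, again after their values were seen, and whether such genes were called more often than others was not tested. Called lower in Replacement, Dop2R, a dopamine receptor, had 11.9 to 32.9 normalized counts in Replacement and 94.3 to 326 in D. mel KO, and AkhR, the receptor of adipokinetic hormone, 6.29 to 53.1 and 263 to 669. GABA-B-R2, a GABA receptor, had 11.9 to 29.9 and 57.8 to 169, Sh, a potassium channel, had 6.64 to 20.1 and 52.4 to 317, and the odorant receptor Or22b at most 2.36 and 21.3 to 120. The gustatory receptors Gr28a and Gr61a had 6.30 to 31.3 and 0 to 17.1 in Replacement, against 83.3 to 202 and 30.2 to 70.2 in D. mel KO. TyrR and Octbeta2R, receptors of tyramine and octopamine, the latter sharing an exon with mir-284, were called higher, with means of 72.1 and 205 normalized counts in Replacement and 19.3 and 55.5 in D. mel KO. Mean FPKM of these 9 genes was below 10 in every genotype except for AkhR in D. mel WT, at 12.3. Vps52, a subunit of the tethering complex of the Golgi that shares an exon with cl, had 66.6 to 109 normalized counts in Replacement, 1136 to 3268 in D. mel KO and 750.3 to 3332 in D. mel WT.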
